A study of Mus musculus with 8 samples.

Results

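The genes described here belong to the bone morphogenetic protein (BMP) pathway of mouse embryonic stem cells: the ligand gene Bmp4, the receptor genes Bmpr1a and Bmpr2, the signal transducer genes Smad1 and Smad5, the inhibitory Smad gene Smad6, and the target genes Id1, Id2 and Id3. Their open chromatin was read as the ATAC-seq peaks whose centre lies inside the span of 1 of these 9 genes or within 50 kb of it. There were 167 such peaks of 134407 in all, all of 1 width. For 101 of them no other protein-coding gene was nearer, and these are called the gene's own peaks; the other 66 lay nearer to a neighbouring gene.

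ATAC-seq marks open chromatin through the Tn5 transposase, which cuts and tags accessible DNA. The cells were wild-type E14, a single established line, grown on gelatin in medium with fetal bovine serum and LIF. Libraries of 50000 live cells came from 4 control and 4 paused samples; the paused cells had 200 nM of the mTOR kinase inhibitor INK128 added for 24 h; all 8 shared the same line, medium and genotype, and only 1 dose and 1 time were sampled. Whether the replicates were separate cultures is not given in the sources used here, so that p-values measure only the spread between these samples. In bulk samples such as these, a site open in more cells and a site more open in each cell cannot be told apart.

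BMP4 binds a complex of type I receptors (such as BMPR1A) and type II receptors (such as BMPR2), serine/threonine kinases that phosphorylate SMAD1 and SMAD5. These enter the nucleus with SMAD4 and switch on targets, among them the Id genes, whose helix-loop-helix proteins lack a DNA-binding region and hold other helix-loop-helix factors inactive. SMAD6 is induced by the pathway and feeds back to block it. In embryonic stem cells kept in serum and LIF, BMP signals and Id proteins are known to hold back neural differentiation.

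Start sites were taken from RefSeq promoter sequences (GRCm38.p6), which were found for 8 of the 9 genes, not for Id1. The stretches below are those nearest to the results: the one start region that a peak covers (Smad1), the start region beside the peak of Bmpr1a that rose, the start regions of the targets Id2 and Id3, and the part of a peak that rose upstream of Smad5 which lies in the RefSeq promoter window of the noncoding gene Gm33019. All are written 5′ to 3′ on the strand of the gene. In Smad1 the capitals mark the 165 bases that lie in the peak; in the others they mark GGCGCC, a GC-rich element to which SMAD1 and SMAD5 are known to bind, and CAGAC or its reverse complement GTCTG, the core of the Smad binding element.
Smad1, chr8:79399429-79399678, minus strand: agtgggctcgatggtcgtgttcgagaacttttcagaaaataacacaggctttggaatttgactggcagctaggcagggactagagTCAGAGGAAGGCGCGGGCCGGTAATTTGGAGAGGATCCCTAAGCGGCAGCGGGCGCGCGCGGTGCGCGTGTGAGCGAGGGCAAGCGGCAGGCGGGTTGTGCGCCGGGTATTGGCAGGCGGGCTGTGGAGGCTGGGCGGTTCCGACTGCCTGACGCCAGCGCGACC
Bmpr1a, chr14:34502547-34502796, minus strand: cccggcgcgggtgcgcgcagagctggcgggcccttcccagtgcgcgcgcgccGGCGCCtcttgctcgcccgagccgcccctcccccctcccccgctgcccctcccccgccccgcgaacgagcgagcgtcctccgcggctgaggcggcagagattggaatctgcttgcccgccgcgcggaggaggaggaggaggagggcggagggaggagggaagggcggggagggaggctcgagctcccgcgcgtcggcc
Id2, chr12:25096093-25096342, minus strand: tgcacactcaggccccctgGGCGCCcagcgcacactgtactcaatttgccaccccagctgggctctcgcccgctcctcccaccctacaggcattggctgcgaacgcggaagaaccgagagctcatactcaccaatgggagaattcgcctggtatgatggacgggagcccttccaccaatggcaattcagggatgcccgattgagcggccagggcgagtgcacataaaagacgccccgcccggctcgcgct
Id3, chr4:136143572-136143821, plus strand: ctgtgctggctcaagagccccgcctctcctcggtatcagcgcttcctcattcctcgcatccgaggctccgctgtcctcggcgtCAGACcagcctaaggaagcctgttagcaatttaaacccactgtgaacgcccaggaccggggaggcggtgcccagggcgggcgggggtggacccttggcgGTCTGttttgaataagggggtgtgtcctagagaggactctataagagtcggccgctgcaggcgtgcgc
Smad5 upstream peak, chr13:56682513-56682653, plus strand: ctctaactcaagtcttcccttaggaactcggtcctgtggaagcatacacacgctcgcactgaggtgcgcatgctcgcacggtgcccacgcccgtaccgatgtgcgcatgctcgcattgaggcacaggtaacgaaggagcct

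GGCGCC, which reads the same on both strands, was found in the 300-base promoter windows (250 bases before to 50 after the start site) of 4 of the 8 genes, Bmpr1a, Bmpr2, Smad5 and Id2, and in 11.9% of 32817 promoter windows. In Bmpr1a it began 198 bases before the start site, in Bmpr2 105 bases and in Id2 231 bases before it. CAGAC, on either strand, was found in Smad5 and Id3 (2 of 8 genes, against 49.6% of all windows). TATAAA, on either strand, was in 0 of 8, against 13.6%. A gene is counted here if any of its windows holds the match, and Smad5 has 3 windows, whereas the shares are per window. None of these matches overlapped another. The windows of the members held between 59.3% G or C (Bmpr2) and 79.3% (Bmpr1a), against a median of 52.7%, and a GC-rich word is found more readily in such windows. These matches describe the letters only.

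The libraries held 4434037 to 21161767 reads in peaks, recovered from the deposited values; the deepest was control replicate 1, and the median peak had 91 reads there and 18 to 29 reads in the other libraries. All 8 stem cell marker genes checked (such as Pou5f1, Sox2 and Nanog) had a peak within 2 kb of a start site, with a summed value of 1745 to 1888 in control and 2011 to 2241 in paused samples. Of the markers of other cell types, 3 of 5 of primitive endoderm (237 to 283 in control and 261 to 303 in paused samples; Gata4 and Pdgfra had no such peak), 5 of 5 of trophoblast (693 to 799 and 749 to 888), 5 of 5 of fibroblasts (533 to 641 and 606 to 658) and 3 of 3 of neural cells (471 to 551 and 484 to 629) had one; an open start site does not show that a gene is expressed. Summed over all peaks, the values were 7.32e+06 to 7.65e+06 in control and higher, 8.06e+06 to 8.64e+06, in paused samples. The part of other cell types in the results was not tested.

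Values below are normalised reads per peak: the reads of a peak divided by the factor the authors gave the library. Changes are paused minus control on the log2(value + 1) scale, with adjusted p from limma-trend (Benjamini-Hochberg over the 127402 peaks whose mean reached 10), and a peak is said to have risen or fallen where this is under 0.05. Of the 101 own peaks, 99 were tested; the other 2, both near Id2, were too weak. In paused cells 11 of the 99 rose and 4 fell. These shares, 11.1% and 4.04%, lie near those of all peaks tested, 11.0% higher and 2.91% lower. The median change of the 99 peaks was 0.10, and that of all tested peaks was 0.10 too. The samples of the groups did not overlap at 17 peaks that were higher and 5 that were lower in paused cells (17.2% and 5.05%, against 13.0% and 4.36% of all peaks). Under other scalings the split of 11 against 4 became 8 against 6 after TMM rescaling of the values, and 5 against 5 after a loess correction on peak strength. All peaks moved in the same way, to 6.01% higher and 4.17% lower with TMM and to 5.09% and 3.51% with loess.

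**Figure D1:**
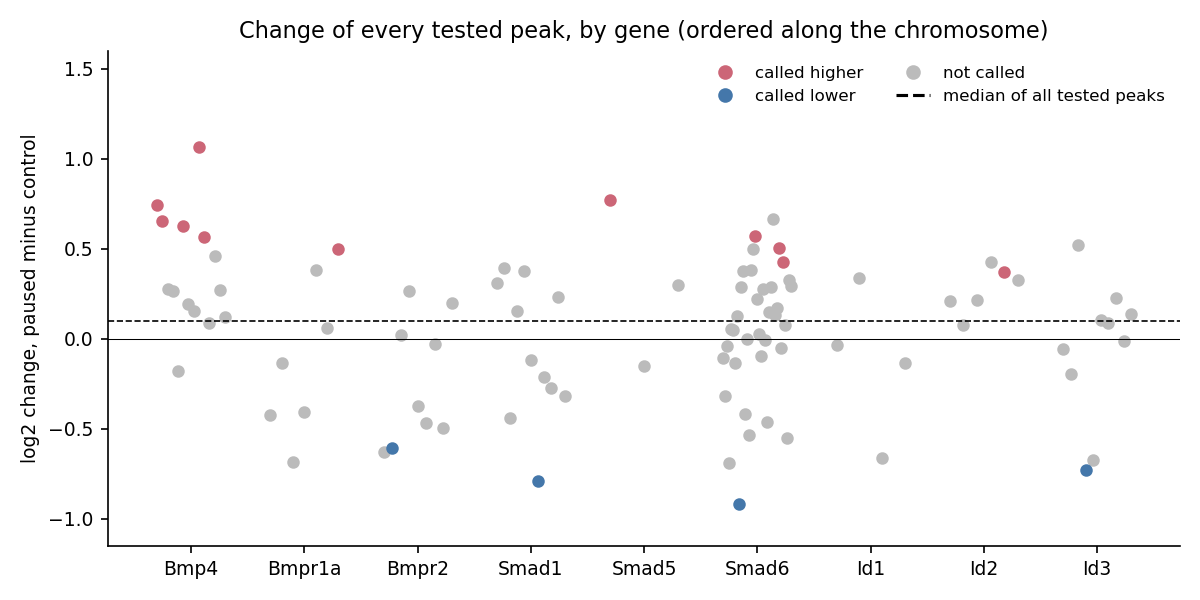
Change (log2, paused minus control) of each of the 99 tested peaks, by gene and in order along the chromosome, with peaks that rose or fell at an adjusted p under 0.05 in colour and the median of all tested peaks (0.10) dashed. The 11 rises are spread over Bmp4, Bmpr1a, Smad5, Smad6 and Id2, and the 4 falls over Bmpr2, Smad1, Smad6 and Id3.

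The rises and falls differed in the strength of the peaks. The 11 peaks that rose had mean values over all samples between 52.9 and 282. The 4 that fell had means between 23.2 and 32.4, with 10 to 34 reads in each library but control replicate 1, where they had 68 to 116. Among the own peaks with a mean of at least 50, 11 of 43 rose and 0 fell, and the median change was 0.27. Among those under 50, 0 of 56 rose and 4 fell, with a median of -0.11. Among all tested peaks, 18.7% rose and 1.35% fell at a mean of at least 50 (median 0.18), and 6.67% and 3.76% below it (median 0.01). Rises were thus more frequent and falls rarer among the stronger of all peaks too. Unlike at the members, rises outnumbered falls below 50 as well.

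**Figure D2:**
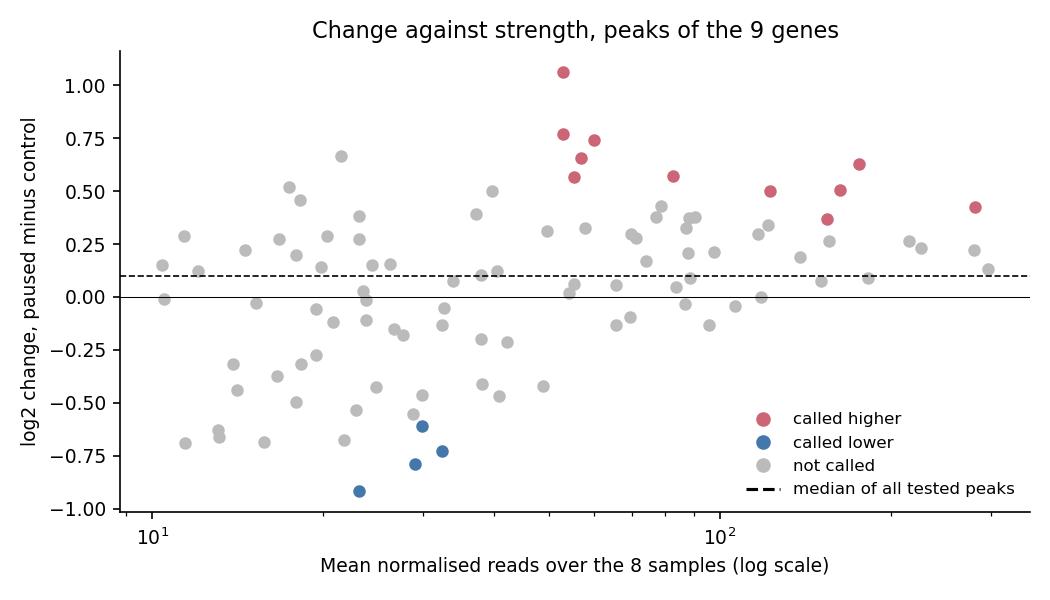
Change (log2, paused minus control) against the mean value over the 8 samples (log axis) for the 99 tested peaks of the 9 genes. All 11 peaks that rose lie at a mean of 52.9 or more, and the 4 that fell lie between 23.2 and 32.4.

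The ligand gene Bmp4 (chromosome 14, 46383525 to 46390669, minus strand) had 14 own peaks, and no peak of its window was nearer to another protein-coding gene. Of these, 5 rose and 0 fell, 35.7% against the 11.0% of all peaks that rose. All 5 rises lie at a mean of at least 50, which 9 of the 14 peaks reach and where 18.7% of all tested peaks rose. The estimate was above 0 for 13 of the 14, against 61.3% of all tested peaks. At a mean of at least 50 it was above 0 for 9 of 9, against 35982 of 45273 of all tested peaks. Over the 14 peaks the estimate ranged from -0.18 to 1.06, with a median of 0.27. After TMM rescaling 12 were above 0, and 11 after loess correction. Peaks of 1 gene are not independent of each other.

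The strongest peak of Bmp4 was also the one nearest to its start site, 1283 bp upstream (chromosome 14, 46391852 to 46392052). Its values were 125, 150.5, 124 and 154 in control replicates 1 to 4 and 198, 233, 194 and 228 in paused replicates 1 to 4. The lowest paused sample was above the highest control sample. Means were 138 ± 16.4 and 214 ± 20.3 (n = 4, SD), 1.54 times as high in paused cells (0.63 ± 0.12 SE on the log2 scale, limma-trend adjusted p = 0.000387).

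A second Bmp4 peak, 20208 bp upstream of the start site (46410777 to 46410977), had the largest estimated rise of all own peaks of the 9 genes. It had values of 30.1, 40.6, 25.4 and 39.7 in control and of 77.3, 91.5, 60.5 and 58.6 in paused samples. The groups lay apart, with all paused values above the controls. The means were 33.9 ± 7.42 and 72.0 ± 15.5 (n = 4, SD), 2.12 times as high (1.06 ± 0.18 SE on the log2 scale, limma-trend adjusted p = 0.000114). Its neighbour 22009 bp upstream (46412578 to 46412778) went from 44.4 ± 8.51 to 66.0 ± 10.2 (n = 4, SD; log2 change 0.57, limma-trend adjusted p = 0.0218), with overlapping groups; this call was lost after TMM rescaling (limma-trend adjusted p = 0.0726), after loess correction (limma-trend adjusted p = 0.131), in edgeR with TMM, in DESeq2 and without control replicate 2 or paused replicate 2.

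The other rises of the Bmp4 window lay downstream of the gene. The peak 27280 bp from the start site (46363289 to 46363489) had values of 39.4, 43.0, 44.0 and 48.5 in control and 56.5, 66.3, 80.7 and 76.2 in paused samples (0.66 ± 0.16 SE on the log2 scale, limma-trend adjusted p = 0.00539). The peak 51618 bp from it (46338951 to 46339151) had values of 50.1, 51.4, 28.8 and 51.4 in control and 73.8, 80.4, 72.9 and 71.5 in paused samples (0.74 ± 0.17 SE on the log2 scale, limma-trend adjusted p = 0.00293). Groups did not overlap at either peak, though DESeq2 called neither (adjusted p = 0.0704 and 0.0793), and control replicate 3 stood below the other controls at the farther one. Both are nearer to Gm15217, a long noncoding RNA gene beside Bmp4, than to Bmp4 itself. Inside Bmp4, the peak 3145 bp from the start site (46387424 to 46387624), whose centre also lies in the noncoding gene Gm15222, was open at 141 ± 8.77 in control and 171 ± 23.2 in paused samples (n = 4, SD) and did not pass the test (log2 change 0.27, limma-trend adjusted p = 0.141).

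**Figure D3:**
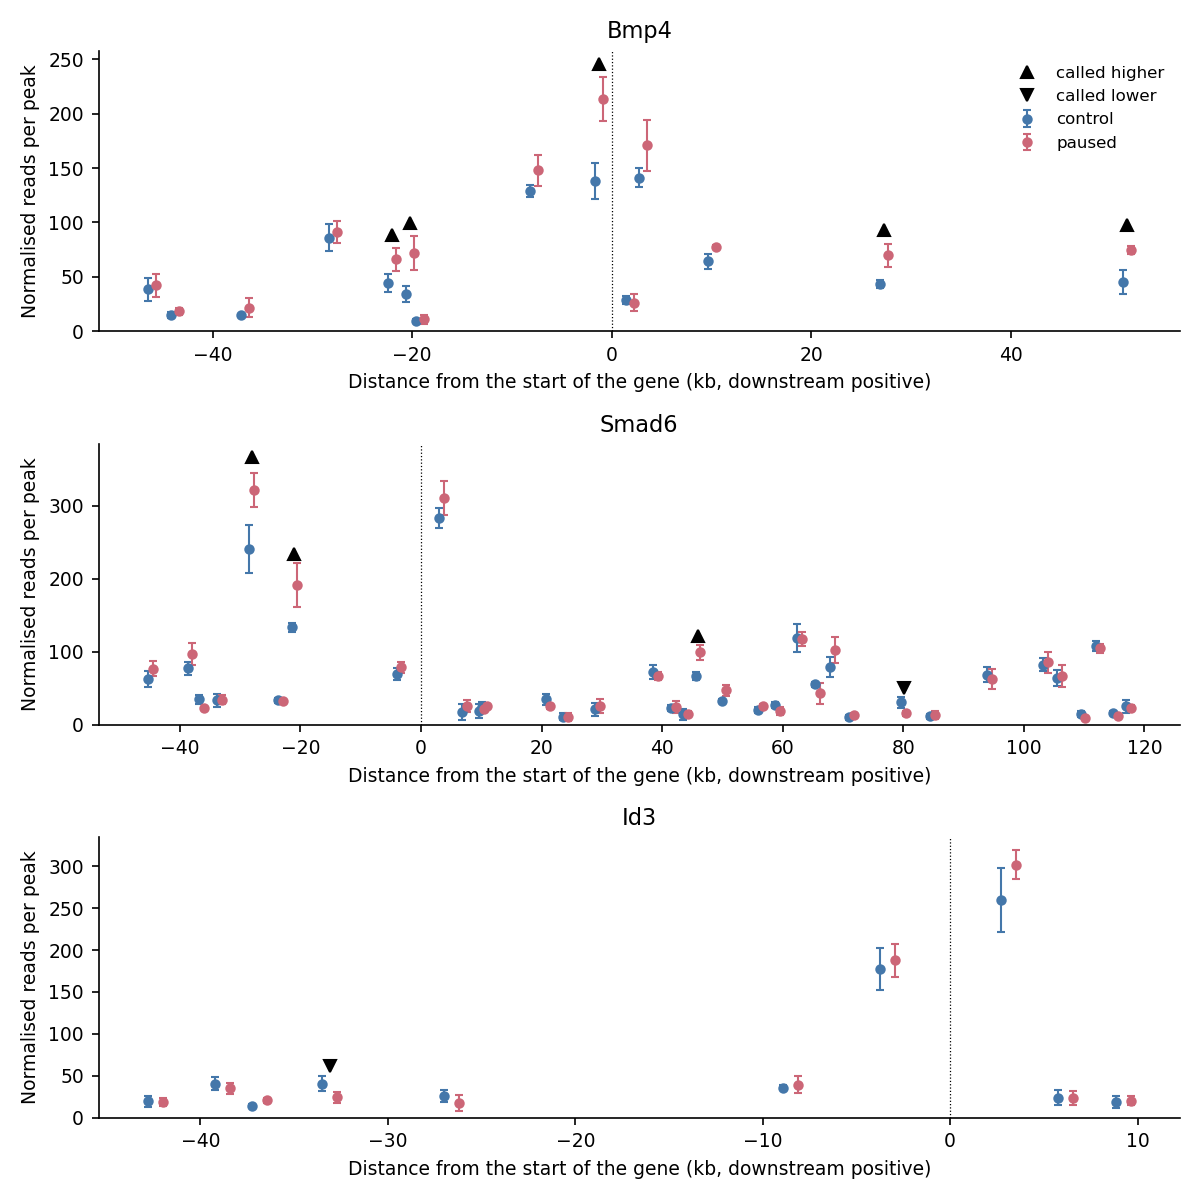
Mean value ± SD (n = 4) of each own peak of Bmp4 (14 peaks), Smad6 (35) and Id3 (10) in control and paused samples, against the distance from the start of the gene in kb, with the groups set slightly apart sideways and triangles over peaks that rose or fell. At Bmp4 the 5 rises lie on both sides of the gene, at Smad6 there are 3 rises and 1 fall, and at Id3 the 2 strongest peaks flank the gene and a weak one 33.1 kb upstream fell.

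Bmpr1a and Bmpr2, the type I and type II receptor genes, had 16 own peaks between them, of which 1 rose and 1 fell, near the 13.9% of all peaks that were called. The estimate was above 0 for 6 of the 16, against 61.3% of all tested peaks. Most of the 16 have a mean under 50, where 42056 of 82129 tested peaks were above 0. All receptor peaks with a mean of at least 50 were above 0, as were 35982 of 45273 of all such peaks. The strongest peak of each lay at its start.

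Bmpr1a (chromosome 14, 34411061 to 34503336, minus strand) had 7 own peaks, 6 of them inside the gene, while 17 peaks of its window lay nearer to Mmrn2, Ldb3, 9230112D13Rik, Fam25c or Sncg. Its strongest peak (34502878 to 34503078), 432 bp upstream of the nearest RefSeq start site and inside the outer end of the gene, had values of 83.7, 136, 93.1 and 95.5 in control and 152, 121, 152 and 145 in paused samples. Control replicate 2 was above paused replicate 2, so that the groups overlapped. The peak rose from 102 ± 23.3 to 143 ± 14.6 (n = 4, SD; 0.50 ± 0.14 SE on the log2 scale, limma-trend adjusted p = 0.0123). This call was lost after TMM rescaling (limma-trend adjusted p = 0.0564), loess correction (0.165), in DESeq2 (0.161) and without control replicate 1. The other 6 peaks of Bmpr1a ran from -0.69 to 0.38 and none passed.

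Bmpr2 (chromosome 1, 59764279 to 59878081, plus strand) had 9 own peaks, and 9 more lay nearer to Nop58 or Fam117b. The peak 973 bp upstream of its start site (59763206 to 59763406) was among its own the strongest, with values of 194, 207, 183 and 198 in control and 265, 199, 239 and 241 in paused samples. Paused replicate 2 lay among the controls. It was not called (195 ± 9.90 and 236 ± 27.6, n = 4, SD; 0.26 ± 0.11 SE on the log2 scale, limma-trend adjusted p = 0.110). A weak peak 19120 bp upstream (59745059 to 59745259) fell from 36.1 ± 2.09 to 23.5 ± 4.03 (n = 4, SD; -0.61 ± 0.21 SE on the log2 scale, limma-trend adjusted p = 0.0458), with no overlap of the groups; the call was lost in DESeq2 and in all fits that left out 1 sample but that without paused replicate 3.

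Smad1 and Smad5, the transducers, had 14 own peaks, of which 1 rose and 1 fell, against 11.0% and 2.91% of all peaks. Smad1 (chromosome 8, 79338395 to 79399428, minus strand) held 11 of them. The peak over its start site, whose upstream part is printed above, had values of 192, 244, 181 and 216 in control and 226 to 267 in paused samples (replicate 2 lowest, replicate 3 highest). Control replicate 2 was above paused replicates 2 and 4, and the groups overlapped (208 ± 27.8 and 243 ± 18.6, n = 4, SD; 0.23 ± 0.11 SE on the log2 scale, limma-trend adjusted p = 0.172). Inside the gene, a peak 14321 bp from the start site (79385007 to 79385207) had values of 40.1, 33.4, 37.3 and 35.3 in control and 31.2, 20.5, 20.2 and 14.1 in paused samples. All paused values were below the controls, and the peak fell (-0.79 ± 0.23 SE on the log2 scale, limma-trend adjusted p = 0.0168), but the call was lost without control replicate 1, without paused replicate 4 and in DESeq2.

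Smad5 (chromosome 13, 56703010 to 56742378, plus strand) had 3 own peaks; 8 others lay nearer to Gm45623, Trpc7 or Tgfbi. The one 161 bp from a start site (56703113 to 56703313) was at 105 ± 23.7 in control and 129 ± 20.6 in paused samples (n = 4, SD; log2 change 0.30, limma-trend adjusted p = 0.162). The one 20397 bp upstream (56682513 to 56682713), part of which is printed above, had values of 38.4, 49.0, 35.6 and 32.3 in control and 49.6, 78.9, 71.4 and 68.0 in paused samples. Paused replicate 1 was only just above control replicate 2, yet the groups did not overlap. It rose 1.73 times (0.77 ± 0.18 SE on the log2 scale, limma-trend adjusted p = 0.0027; DESeq2 adjusted p = 0.0539). Its centre lies inside the noncoding gene Gm33019.

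Smad6 (chromosome 9, 63953076 to 64022085, minus strand), the feedback inhibitor, had the most own peaks, 35, at percentile 99.1 of the genes with a peak of their own, whose median number was 4. Of these, 3 rose and 1 fell (8.57% and 2.86%, against 11.0% and 2.91% of all peaks). Smad6 had 21 with an estimate above 0 (60%, against 61.3% of all tested peaks), and a median change of 0.07. Its strongest peak lay 3414 bp inside the gene from the start site (64018545 to 64018745), at 284 ± 13.9 in control and 311 ± 23.3 in paused samples (n = 4, SD), and was not called (log2 change 0.13, limma-trend adjusted p = 0.422); the estimate was -0.07 after loess correction.

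A peak 21055 bp upstream of Smad6 (64043014 to 64043214) had values of 137, 128, 129 and 141 in control and 165, 218, 166 and 218 in paused samples. All paused values were above the controls, with 2 near 165 and 2 near 218. It rose 1.43 times (0.50 ± 0.12 SE on the log2 scale, limma-trend adjusted p = 0.00437). Farther upstream, at 28091 bp (64050050 to 64050250), the values were 241, 200.7, 242 and 281 in control and 293, 315, 335 and 346 in paused samples, again without overlap (0.42 ± 0.11 SE on the log2 scale, limma-trend adjusted p = 0.00795). This second peak lies inside the noncoding gene 1110036E04Rik, and the first is nearer to the noncoding gene 1700055C04Rik than to Smad6.

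Within Smad6 a peak 45937 bp from the start site (63976022 to 63976222) rose from 66.3 ± 5.48 to 99.3 ± 10.4 (n = 4, SD; 0.57 ± 0.14 SE on the log2 scale, limma-trend adjusted p = 0.00489). These 3 rises of Smad6 were lost after loess correction (limma-trend adjusted p from 0.0729 to 0.159) and in DESeq2. The fall was at a weak peak 80081 bp from the start site (63941878 to 63942078), beyond the far end of the gene and inside the noncoding gene Gm36033. It had values of 23.5, 40.6, 32.2 and 26.5 in control and 19.6, 15.8, 15.5 and 11.7 in paused samples, each paused value below each control (-0.92 ± 0.25 SE on the log2 scale, limma-trend adjusted p = 0.0116). Without control replicate 2 it was not called.

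Of the 22 own peaks of the 3 Id genes, 20 were tested, 1 rose and 1 fell, against 11.0% and 2.91% of all peaks. None of the peaks nearest to their start was called. Id1 (chromosome 2, 152736251 to 152737410) had 4 own peaks, since 15 of the 19 in its window lay nearer to H13, Bcl2l1 or Cox4i2. The peak inside Id1, 367 bp from an end of the gene (152736518 to 152736718), had values of 89.9, 117, 117 and 77.9 in control and 96.9, 74.1, 93.1 and 98.4 in paused samples. The paused values lay within or just below the range of the controls (-0.13 ± 0.15 SE on the log2 scale, limma-trend adjusted p = 0.579). The strongest, 9101 bp from the gene (152727050 to 152727250), was at 107 ± 8.56 in control and 136 ± 13.5 in paused samples (n = 4, SD); its groups lay just apart, at most 119.6 and at least 119.9, and it missed the threshold (0.34 ± 0.13 SE on the log2 scale, limma-trend adjusted p = 0.0650).

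Id2 (chromosome 12, 25093799 to 25096092, minus strand) had 8 own peaks. All 6 that were tested at Id2 had an estimate above 0, from 0.08 to 0.43. These 6 Id2 peaks have a mean of at least 50, where 35982 of 45273 tested peaks were above 0 (61.3% at any mean). The peak 648 bp upstream of its start site (25096640 to 25096840) was at 90.5 ± 12.5 in control and 105 ± 7.84 in paused samples (n = 4, SD; log2 change 0.21, limma-trend adjusted p = 0.302). The strongest, 28701 bp upstream and nearer to the noncoding gene Gm17746 (25124693 to 25124893), had values of 131, 142, 115 and 149.9 in control and 175, 177, 191 and 152 in paused samples. Control replicate 4 and paused replicate 4 almost met, and the groups did not overlap. The rise was 1.29 times (0.37 ± 0.12 SE on the log2 scale, limma-trend adjusted p = 0.0366), and it was lost after TMM rescaling (limma-trend adjusted p = 0.148), loess correction (0.406), in both tests of the reads with TMM or DESeq2 scaling and in the fits without control replicate 1 or 3 or paused replicate 1, 2 or 3.

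Id3 (chromosome 4, 136143822 to 136145392, plus strand) had 10 own peaks and none within 2 kb of its start site; 10 more lay nearer to E2f2 or Rpl11. Its 2 strongest flanked the gene. The one 3123 bp downstream of the start site (136146845 to 136147045) had values of 222, 236, 305 and 276 in control and 283, 298, 301 and 325 in paused samples. Control replicate 3 exceeded 3 of the 4 paused samples (0.22 ± 0.11 SE on the log2 scale, limma-trend adjusted p = 0.173). The other, 3349 bp upstream (136140373 to 136140573), lies inside the noncoding gene Gm42329 and was at 177 ± 25.0 in control and 188 ± 19.7 in paused samples (n = 4, SD; log2 change 0.09, limma-trend adjusted p = 0.670). A weak peak 33106 bp upstream (136110616 to 136110816) fell from 40.5 ± 8.82 to 24.3 ± 6.96 (n = 4, SD; -0.73 ± 0.23 SE on the log2 scale, limma-trend adjusted p = 0.0249), with overlapping groups, and the call was lost in DESeq2 and without control replicate 1, 3 or 4 or paused replicate 1 or 2.

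**Figure D4:**
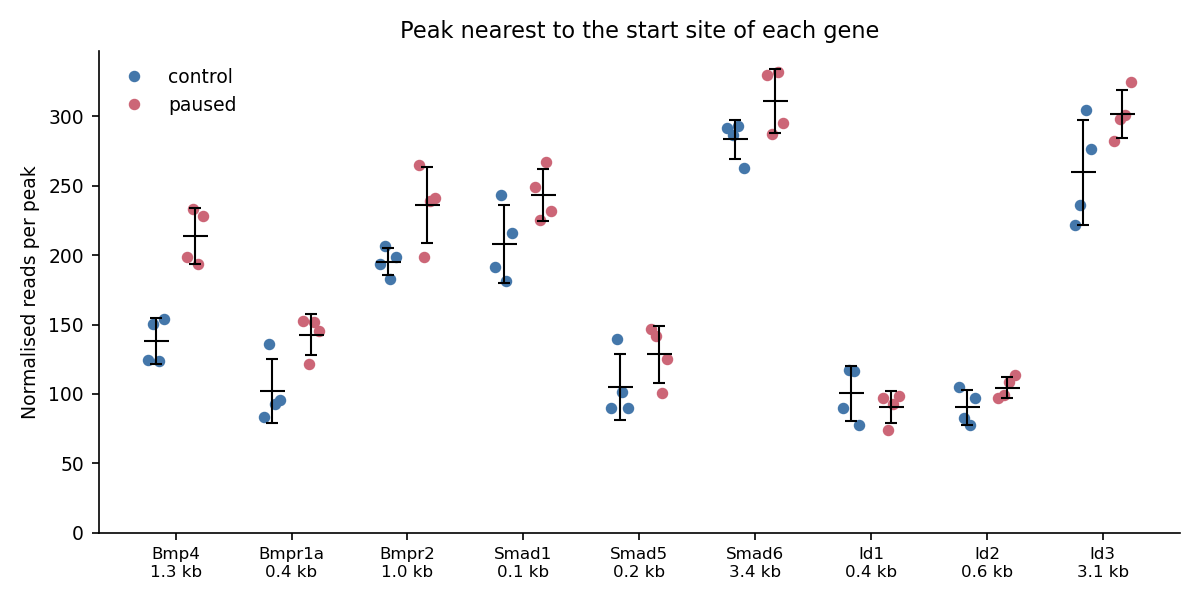
Normalised reads per peak in each sample for the own peak nearest to the start site of each gene (for Id1, to an end of the gene), with its distance under the name; bars are means ± SD (n = 4). Only at Bmp4 do all paused samples (194 to 233) lie above all control samples (124 to 154), and Smad6 and Id3 have no peak within 2 kb.

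Across the peaks nearest to the start sites, all of 1 width, the mean control levels ran from 90.5 at Id2, 100.4 at Id1, 102 at Bmpr1a and 105 at Smad5 through 138 at Bmp4, 195 at Bmpr2 and 208 at Smad1 to 260 at Id3 and 284 at Smad6. The first 4 do not differ beyond their SDs of 12.5 to 23.7, nor do Bmpr2 and Smad1, with SDs of 9.90 and 27.8, or Id3 and Smad6, with 37.9 and 13.9. In paused samples Bmp4, at 214, was close to Bmpr2 (236) and Smad1 (243).

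Summed over all own peaks, 1 value per gene and sample, the gene-wide signal was compared over 18182 genes. It was higher in paused cells for Bmp4, Smad5, Smad6 and Id2, 4 of the 9 genes, and lower for 0. Of all genes, 31.2% were called, 29.8% higher and 1.40% lower, and the median change of all gene sums was 0.15. The Bmp4 sum was 803, 824, 803 and 904 in control and 1026, 1203, 1122 and 1064 in paused samples, with no overlap of the groups, which Smad6 alone shared among the other 8 genes (2 of 9 in all, both higher; 27.3% of all genes had no overlap, 25.7% higher). It rose 1.32 times (0.40 ± 0.06 SE on the log2 scale, limma-trend adjusted p = 2.99e-05), 0.26 above the median of all genes and higher than the change of 93.5% of them. The rise of Bmp4 was called under all 14 alternatives run, with log2 changes from 0.25 to 0.44.

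Smad6 rose less, from 2032 ± 53.9 to 2265 ± 21.5 (n = 4, SD; 0.16 ± 0.04 SE on the log2 scale, limma-trend adjusted p = 0.00353), which is 0.01 above the median gene. Smad5 went from 172 ± 31.6 to 221 ± 19.5 (log2 change 0.37, limma-trend adjusted p = 0.0144) and Id2 from 588 ± 33.5 to 698 ± 73.0 (log2 change 0.24, limma-trend adjusted p = 0.0131; n = 4, SD), both with overlapping groups. The calls of Smad5, Smad6 and Id2 were lost after TMM rescaling, which moved the median of all genes from 0.15 to 0.04, after loess correction and with peaks within 10 kb only; that of Smad5 was also lost without control replicate 4, and that of Id2 without paused replicate 3. Bmpr1a (0.14), Smad1 (0.11), Id3 (0.07), Id1 (0.05) and Bmpr2 (0.01) were not called, with limma-trend adjusted p from 0.211 to 0.940, and the estimates of all 5 turned below 0 after loess correction.

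**Figure D5:**
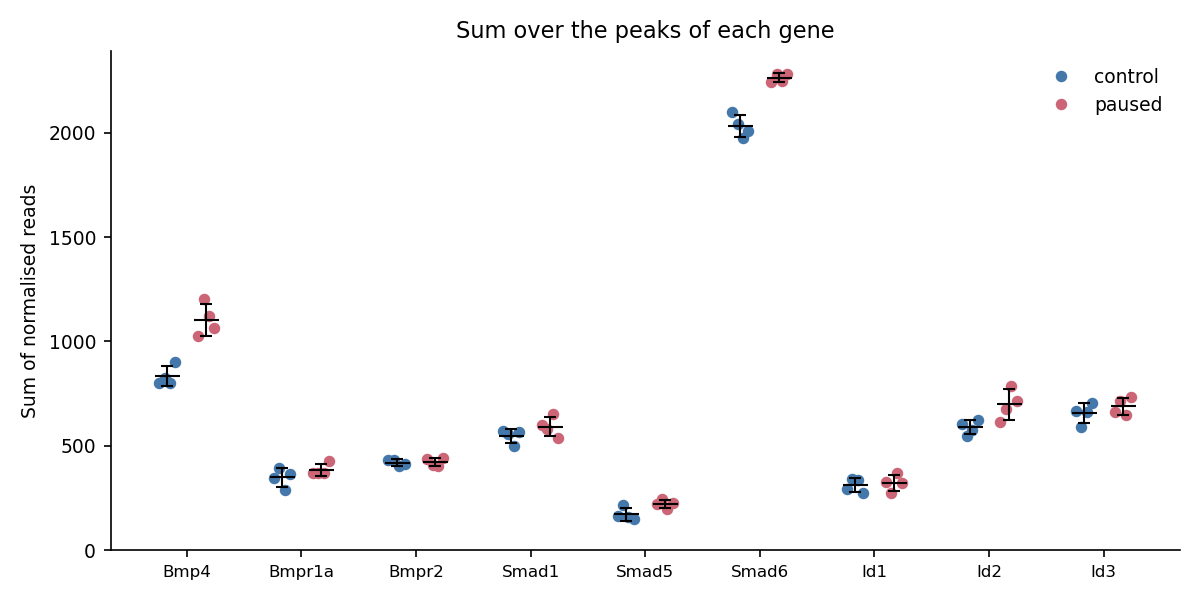
Sum of normalised reads over the own peaks of each gene in each sample, with means ± SD (n = 4). The paused samples lie above all control samples at Bmp4 (1026 to 1203 against 803 to 904) and Smad6, and the groups overlap at the other 7 genes.

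Of the 66 peaks nearer to another protein-coding gene, 65 were tested, 4 rose and 0 fell, where 11.0% and 2.91% of all tested peaks did. In the window of Id1, 3 of these 4 rises lie inside Bcl2l1, which encodes the survival factor BCL-XL. The peak at 152772354 to 152772554 went from 70.4 ± 9.93 to 128 ± 19.1 (n = 4, SD; 0.85 ± 0.14 SE on the log2 scale, limma-trend adjusted p = 7.0e-05), that at 152785734 to 152785934 from 16.0 ± 3.15 to 34.8 ± 5.28 (log2 change 1.08, limma-trend adjusted p = 0.00188) and that at 152769714 to 152769914 from 38.7 ± 5.75 to 60.4 ± 6.97 (log2 change 0.63, limma-trend adjusted p = 0.0103). Groups did not overlap at any of these; the last lost its call in edgeR with TMM, DESeq2, after loess correction and without paused replicate 4. The fourth, near Nop58 in the window of Bmpr2 (chromosome 1, 59728613 to 59728813), went from 74.1 ± 9.82 to 103 ± 17.6 (n = 4, SD; log2 change 0.47, limma-trend adjusted p = 0.0261), and lost its call after TMM rescaling, loess correction, in edgeR with TMM and DESeq2, and without control replicate 2 or 3 or paused replicate 2 or 4. Noncoding genes are close as well: 33 of the 101 own peaks, 8 of the 15 called ones among them, were nearer to a noncoding gene or pseudogene than to the member. For 5 of the 33, all at Smad6, this was the pseudogene Gm18541, and for the others a long noncoding RNA gene.

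Other genes of the pathway were read in the same way through a list of 30. Their 238 tested own peaks held 31 that rose and 5 that fell (13.03% and 2.10%, against 11.0% and 2.91% of all peaks), with a median change of 0.09; after TMM rescaling 13 rose and 9 fell, where 6.01% and 4.17% of all peaks did. Among ligand genes 10 of 56 peaks rose, 7 of them at Bmp7, and 0 fell. Receptor genes had 1 rise and 1 fall in 35 peaks, the Smad genes Smad4, Smad7 and Smad9 had 4 and 2 in 36, and inhibitor genes such as Nog and Chrd had 5 and 0 in 52. Target genes had 11 and 2 in 59. Of the 30 gene sums, 9 were called higher and 0 lower, a share near the 29.8% of all genes called higher. The pair with the smallest adjusted p, named after their values were seen, were Id4 (565 ± 40.9 to 759 ± 31.7, n = 4, SD; log2 change 0.43, limma-trend adjusted p = 4.9e-05), the fourth Id gene, and Runx2 (642 ± 37.2 to 879 ± 65.2, n = 4, SD; log2 change 0.45, limma-trend adjusted p = 2.3e-05), a bone regulator known as a BMP target.

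In the authors' deposited table, all 11 of the own peaks that rose here have an FDR under 0.05, as do 2 of the 4 that fell, those of Smad1 (FDR 0.0354) and Smad6 (FDR 0.0308); the values are the same, so that this is not independent.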

How the data were processed

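ATAC-seq libraries of 4 control and 4 paused samples were grouped by sample title, and table columns were matched through library names. Per the submitters' processing notes the tools were FastQC, Trim Galore, Bowtie2 2.4.1, MACS3 3.0.3 and DiffBind 3.16.0, with build mm10; filters, Tn5 offset handling and the origin of the scaling are not given in the sources used here. The authors deposited a signal per peak and sample: reads divided by 1 factor per library, as worked out from the values, 100% of which are whole multiples of 1 step within 0.01. They also deposited log2 means and a log2 fold, with the p-values of their own comparison; only the fold's FDR is cited. Unused per-sample columns: 0. Replicate pairs differed by more than sampling noise (chi-square per degree of freedom 1.09 to 1.68).

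Members, lists and tests were chosen with earlier results of these data known. Raw counts were one possibility in the design; the values being normalised, limma-trend (limma 3.58.1, R 4.3.3) on log2(value + 1) was used, without covariates, for peaks and for sums per gene. This scale understates the change of weak peaks. edgeR 4.0.16 (quasi-likelihood) on the recovered reads called 16142 peaks with TMM and 21045 with the deposited factors, against 17660; DESeq2 1.42.0 called 5794. Steps were tested on simulated data. A peak belongs to the protein-coding gene with the nearest span (GRCm38.p6). Named peaks are, per member, the one nearest to the start within 2 kb, the strongest, and up to 4 called ones by adjusted p, and up to 5 called ones nearer to other genes; the fifth called peak of Bmp4, its peak inside the gene and the second strongest of Id3 were added after their values were seen. Counting errors cover sampling of reads only.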

Additional observations from a re-analysis of the deposited data

Results flagged for a closer look

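In 70 groups of 4 values (the named peaks and the sums of the 9 genes, in control and in paused samples), 2 had 1 sample far from the other 3 by Dixon's test at the 95% level; chance gives about 1 in 20. At the Bmp4 peak 51618 bp downstream of the start site, control replicate 3 had 28.79 against 50.1 to 51.4 in the other controls, and without it the peak was still called. For the sum of Bmpr1a, paused replicate 4 had 428.79 against 368 to 369 in the other paused samples. Neither was explained.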

How the results depend on the processing

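Of the 15 calls among the members' peaks, the Bmp4 peaks 1283 and 20208 bp upstream were kept under all 17 alternatives. DESeq2 called 3 of the members' peaks, 2 higher and 1 lower (3.06% and 1.49% of all peaks), edgeR with TMM called 9 higher and 7 lower (7.13% and 5.54% of all), the loess correction left 5 higher (5.09% of all), and a mean of at least 50 left 0 lower (1.66% of all); none of the peaks that fell was tested at that mean. A window of 20 kb held fewer own peaks and 6 calls, 3 of them higher. With noncoding genes counted as neighbours, a choice made after seeing the data, 33 of the 101 own peaks were dropped. Of the calls 7 were left, 5 higher and 2 lower. Both choices kept the main fit, in which 11.0% of all peaks rose and 2.91% fell. Leaving out 1 sample gave 11 to 17 calls, 9 to 13 higher and 1 to 4 lower. In these fits 7.02% to 9.99% of all peaks were called higher and 1.81% to 3.05% lower. For the other pathway genes, to be read against the same shares of all peaks, DESeq2 gave 7 (6 higher, 1 lower), TMM rescaling 22 (13 and 9), edgeR with TMM 20 higher and 12 lower, loess correction 19 (12 higher), a mean of at least 50 gave 1 lower, and leaving out 1 sample 19 to 34 (16 to 31 higher, 2 to 8 lower). Calls among the 9 gene sums went from 4 to 1, that of Bmp4, after TMM rescaling, loess correction and with peaks within 10 kb, while the share of all genes called went from 31.2% to 9.94%, 8.88% and 27.2%. Directions turned, all without a call, for the strongest Smad6 peak (-0.0735, loess) and for the sums of Bmpr1a (-0.00886, loess), Smad1 (-0.0424, loess), Bmpr2 (-0.0936 TMM, -0.145 loess), Id1 (-0.0522 TMM, -0.105 loess) and Id3 (-0.0309 TMM, -0.0790 loess). Without 1 sample the Bmpr2 sum lay between -0.0158 and 0.0321 and the Id1 sum between -0.0159 and 0.127. The cause of these shifts was not tested. A replicate block gave 17 calls among the members' peaks, 13 higher and 4 lower (13.6% and 3.63% of all peaks). It called 4 of the gene sums (38.5% of all genes). Correlations of same-numbered deviations were 0.04 to 0.13, and those of differently numbered ones ran from -0.10 to 0.07. Whether the replicate numbers pair the samples was not settled. Tested peaks of the members had as few as 2 reads in a library, and the 4 that fell as few as 10.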
